A study of Danio rerio with 6 samples.

Results

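Cells of an epithelium are held together and sealed by several kinds of junction, and most of the genes described here encode their parts or related proteins. Claudins and occludins form the strands of tight junctions, which limit leakage between cells. Cadherins bind neighbouring cells in adherens junctions and are tied to the actin skeleton through catenins, while desmosomes use plakoglobin, desmoplakin and plakophilins to anchor keratin filaments. Connexins build the channels of gap junctions. Annexins bind phospholipid membranes when calcium is present, and the Kunitz-type inhibitors Spint1 and Spint2 restrain membrane-bound serine proteases such as matriptase on epithelial surfaces. Annexins and these inhibitors are not parts of junctions, but the counts of junction genes and junction probe sets below include them.

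The probe sets were taken from the array table by name: those whose single platform gene symbol begins with cldn, cdh and a digit, pcdh, epcam, ocln, tjp, jup, dsp, pkp, ctnna, ctnnd, gja, gjb, cx and a digit, anxa or spint. The rule found 104 probe sets for 79 genes, of 8793 genes with a name of their own on the array, and no symbol began with cx and a digit. Another 4 probe sets carrying several symbols of these families, among them ctnnd2a with ctnnd2b, were not used.

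The study compared whole zebrafish embryos labelled as prdm1 null mutants (prdm1a in the design text) with whole embryos labelled as wild type, all aged 25 hpf (hours after fertilization), with 3 Affymetrix arrays for each group. Prdm1a is a DNA-binding regulator with zinc fingers, and in zebrafish it is known to direct slow muscle fibres, sensory neurons and neural crest. The labels' protocols say that embryos were told apart manually by phenotype, ribosomal RNA was depleted and the cDNA was amplified, and the labels used here give no allele, clutch or number of embryos per sample. With 0 probe sets named for prdm1a or prdm1b, the mutated gene itself is not analysed here. Whole-embryo RNA mixes all tissues, so fewer cells of a type and less RNA per cell cannot be told apart. Markers of epidermis (15 of 16 genes on the array), neurons (13 of 13) and fast muscle (10 of 10) passed the filter on dim signals. As a sign of RNA quality, the control probe sets at the 3' and 5' ends of actc1b were compared: the ratio of their signals was 26.2 to 38.8 on mutant arrays, against 55.4 to 92.4 on wild-type arrays (exact permutation p = 0.1, two-sided, which is the lowest p available with 3 arrays a group). For gapdhs it was 3.28 to 7.65 on mutant arrays, against 9.16 to 14.5 on wild-type arrays (exact permutation p = 0.1).

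Values are log2 of the deposited array signal. Of the 104 probe sets, 73 for 61 genes passed the filter, which left out the lowest 30% of the array (mean log2 signal under 5.36, a signal of 41.1), and 31 were left out, including 9 of the 10 connexin genes. Fold changes are mutant over wild type, and p-values are from limma, adjusted by the Benjamini-Hochberg method across the 10851 probe sets tested on the array, with 0.05 as the threshold. Counts at an unadjusted p under 0.05 are descriptions only, as the share of all tested probe sets under it was not computed. That share was large: at the lens gene cryba4 an unadjusted p of 0.0494 became an adjusted p of only 0.242 in limma. Such counts therefore show no excess among the genes described.

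In the mutant, 4 probe sets of these genes rose and 1 fell. Those that rose belonged to the protease inhibitor gene spint1b, the annexin genes anxa13l and anxa13 and the claudin gene cldn11b, and the one that fell was a dim probe set of epcam. Annexins thus gave 2 calls among 15 tested probe sets and Kunitz inhibitors 1 among 5. Claudins gave 1 among 24 and epcam 1 among 2, and the other groups gave none. Main genes of the adhesion belt and of the plaque of desmosomes, cdh1, cdh2, ctnna1, jupa and dspa, did not pass, with changes from -0.06 to 0.37 on the log2 scale. The 5 calls were 6.85% of the 73 tested probe sets, where 3.39% of all tested probe sets were called (1.54% higher and 1.85% lower). Of the 5, 3 (spint1b, anxa13l and epcam) had 1 group's mean under the filter level and passed the filter through their brighter group. The 2 shares therefore do not show that junction genes were called more often. With the lowest 50% left out, 2 junction probe sets were called, where 3.69% of all tested probe sets were. The median log2 fold change over the 61 genes, each read from its brightest probe set, was 0.00 with 31 above 0 and 30 below, and the median over 7053 named genes was also 0.00. The groups did not overlap for 22 of the 73 (30.1%), 8 higher and 14 lower, against 27% of all tested probe sets.

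The number of calls depended on single arrays. It was 3 without mutant replicate 1, mutant replicate 3 or wild type replicate 1, where 2.03%, 1.7% and 2.97% of all tested probe sets were called. It was 2 without mutant replicate 2 or wild type replicate 2, where that share was 1.94% and 0.995%. Without wild type replicate 3 it was 5, of which 4 were the same probe sets and the other was ctnna1 (0.60, limma adjusted p = 0.0496), and 4.24% of all tested probe sets were called. That array lay farthest from the other 2 wild-type arrays for 40 of the 73 probe sets, a count that was not made over the whole array. With the actc1b or the gapdhs 3' over 5' ratio as a covariate, spint1b was the only one of these genes called, while calls over the whole array fell to 0.24% and 0.405% of the tested probe sets. Each ratio was lower on every mutant array than on every wild-type array. RNA quality and genotype therefore cannot be told apart by these fits, whether a call was kept or lost.

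**Figure D1:**
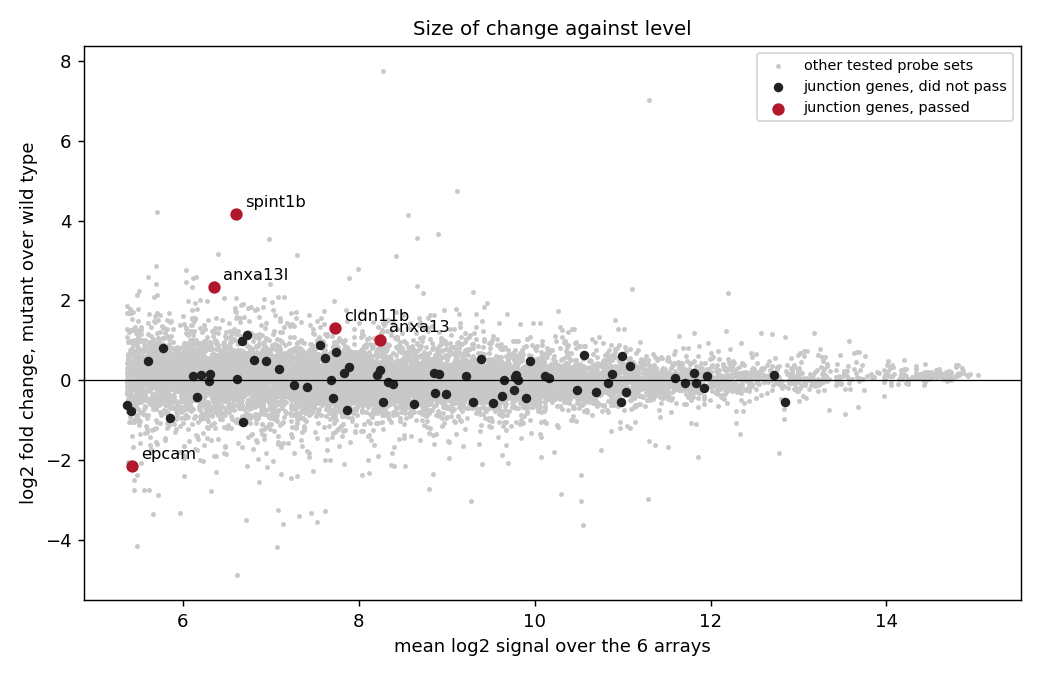
Log2 fold change of prdm1a mutant over wild type (vertical axis) against the mean log2 signal over the 6 arrays (horizontal axis) for the 10851 tested probe sets. Grey points are other genes, black points the 68 junction probe sets that did not pass and red points the 5 that did, of which spint1b, anxa13l and epcam lie at low mean signal.

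The Kunitz inhibitor genes held the largest change. Spint1 (HAI-1 in mammals) inhibits matriptase and the activator of hepatocyte growth factor, and in zebrafish its paralogue spint1a is known for keeping the larval epidermis intact. The x_at probe set of spint1b had log2 signals of 8.94, 8.56 and 8.54 in mutant embryos, against 4.26, 4.59 and 4.74 in wild-type embryos. The 3 mutant arrays were close together and far above the 3 wild-type arrays. The change was 4.15 (SE 0.26, limma adjusted p = 7.99e-05), or 17.8-fold. The wild-type mean signal was 23.3, under the filter level, so the fold depends on dim values: with an offset of 64 added before the log the change was 2.45. The call held under every alternative in which the probe set was tested, with changes from 4.02 to 4.26 when single arrays were left out.

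The other probe sets of spint1b did not repeat that size. The s_at probe set, listed under the same sequence accession in the platform annotation, had 8.02, 8.29 and 7.70 in mutant embryos, against 7.16, 6.92 and 7.26 in wild-type embryos. All mutant arrays were again above all wild-type arrays, with a change of 0.89 that did not pass (SE 0.22, limma adjusted p = 0.0644). Within arrays, the x_at change exceeded the s_at change by 3.26 (exact two-sided permutation p = 0.1, the smallest possible; 3 such differences were computed, chosen after their values were seen). In Affymetrix naming, x_at marks a probe set that shares probes with other sequences, and s_at one whose probes match several transcripts. Whether another transcript contributes was not tested. The 2 remaining spint1b probe sets lay under the filter. The brighter of these had 5.75, 5.47 and 5.43 in mutant embryos, against 4.82, 3.75 and 5.67 in wild-type embryos, and the groups overlapped. The dimmer had 1.73, 3.0 and 3.74 in mutant embryos, against 1.47, 4.72 and 4.66 in wild-type embryos, also with overlap.

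The other Kunitz inhibitors did not pass. The paralogue spint1a had 8.55, 8.09 and 8.37 in mutant embryos, against 8.53, 8.52 and 8.26 in wild-type embryos, a change of -0.10 with a 95% interval from -0.52 to 0.33. For spint2, which encodes HAI-2, the brighter probe set was at -0.29 and the dimmer at 0.55 (limma adjusted p = 0.325 and 0.369). The matriptase gene st14a, a target of Spint1, was at -0.20 (95% interval -0.73 to 0.34). Of 5 tested genes among proteases and partners of these inhibitors and of annexins, none passed in limma, and 1 had an unadjusted p under 0.05. It was plg, which encodes plasminogen, at 0.45 (limma adjusted p = 0.218). Next came s100w at 0.52 (limma adjusted p = 0.340), and s100a10b, the partner of annexin A2, was at 0.19 (limma adjusted p = 0.565).

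Among annexins, anxa13l and anxa13 rose and the other 11 tested genes did not pass. Annexin A13 is known in mammals from intestinal and renal epithelium, where it takes part in apical membrane traffic. The single anxa13l probe set had log2 signals of 7.82, 6.98 and 7.76 in mutant embryos, against 4.85, 5.69 and 5.01 in wild-type embryos. All mutant arrays were above all wild-type arrays, with a change of 2.34 (SE 0.34, limma adjusted p = 0.00816), or 5.05-fold. The wild-type mean signal of 37.6 was under the filter level, and with an offset of 64 the change was 1.30. The call held without each single array and ended with the gapdhs (limma adjusted p = 0.216) or actc1b covariate (0.371).

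For anxa13 both probe sets were higher on every mutant array. The brighter had 8.60, 8.97 and 8.69 in mutant embryos, against 7.68, 7.62 and 7.91 in wild-type embryos, a change of 1.02 (SE 0.19, limma adjusted p = 0.0212), or 2.03-fold. The call ended without mutant replicate 2 (0.0784), mutant replicate 3 (0.0691) or wild type replicate 2 (0.101), under the gapdhs and actc1b covariates (0.202 and 0.169), and with the replicate number as a block, where the limma adjusted p was 0.0578. The dimmer, under the filter, had 5.62, 5.99 and 6.63 in mutant embryos, against 4.61, 4.01 and 4.98 in wild-type embryos. Fitted without the filter it was at 1.55 (limma adjusted p = 0.106). The yolk, gut and endoderm markers had a summed signal of 114100 to 127314 in mutant embryos and 112251 to 127361 in wild-type embryos, and 2 of 10 passed, both lower (fabp2 and fabp1b.1). The other 8 summed to 95824 to 109405 in mutant embryos and 84583 to 97825 in wild-type embryos, with overlap. Their part in the anxa13 and anxa13l results was not tested.

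**Figure D2:**
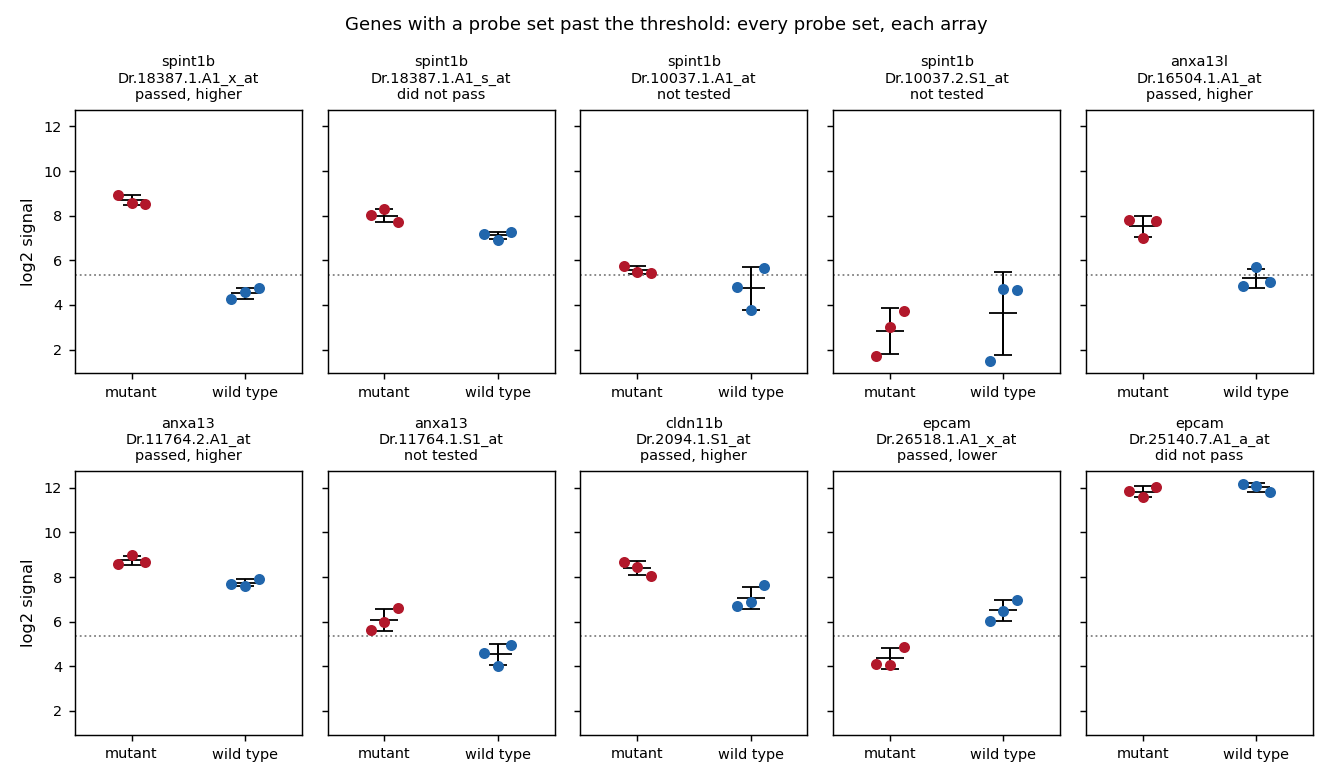
Log2 signal (vertical axis) of every probe set of the 5 genes with a call, with mutant arrays in red on the left and wild-type arrays in blue on the right of each panel. Points are arrays, black bars are the mean and SD (n = 3), and the dotted line is the filter level of 5.36. The spint1b x_at, anxa13l and epcam x_at panels have 1 group under that line, and other probe sets of spint1b and epcam are less far apart.

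The annexins of the skin did not pass. The genes anxa1a, anxa1b and anxa1c are known from zebrafish epidermis. Of these, anxa1a had 12.91, 12.59 and 12.87 in mutant embryos, against 13.00, 12.85 and 12.12 in wild-type embryos, a change of 0.13 (95% interval -0.36 to 0.62). The anxa1c probe set had 12.29, 12.57 and 12.84 in mutant embryos, against 13.38, 12.82 and 13.16 in wild-type embryos. Its groups overlapped by a single mutant array, and the change of -0.55 did not pass (limma adjusted p = 0.128). The change of anxa1b was -0.07 (95% interval -0.63 to 0.49).

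The annexin A2 gene anxa2a, which organises membrane and actin at the cell cortex, had 9.18, 8.92 and 8.99 in mutant embryos, against 9.83, 9.35 and 9.55 in wild-type embryos. Every mutant array was below every wild-type array, but the change of -0.54 did not pass (limma adjusted p = 0.120). For anxa4 the probe sets went opposite ways without overlap between groups. One had 9.70, 9.45 and 9.85 in mutant embryos, against 9.33, 9.06 and 8.98 in wild-type embryos, and the other 7.23, 7.71 and 7.53 in mutant embryos, against 7.78, 8.21 and 8.73 in wild-type embryos. Their changes of 0.54 and -0.75 did not pass (limma adjusted p = 0.118 and 0.159), and they differed by 1.29 within arrays. As each probe set separated the groups, in opposite directions, their difference had to do so too. Its p was thus fixed at the lowest available value (exact permutation p = 0.1) and tells nothing further. The anxa1d probe sets, at 0.99 and 1.13, spread widely and overlapped, the second with 7.45, 6.54 and 7.89 in mutant embryos, against 7.51, 6.19 and 4.80 in wild-type embryos, and did not pass. The remaining 5 tested probe sets, of anxa11a, anxa11b, anxa3b, anxa5b and anxa6, were between -0.29 and 0.16, and the anxa2b probe set and the other probe sets of anxa5b lay under the filter.

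Among claudins, cldn11b rose, and the other 23 tested probe sets did not pass, between -1.05 and 0.63. Claudin 11 is known in mammals from myelin and from the barrier of the testis. The cldn11b probe set had 8.66, 8.45 and 8.05 in mutant embryos, against 6.71, 6.88 and 7.63 in wild-type embryos. The groups did not overlap, with wild type replicate 3 nearest to the mutant arrays, and the change was 1.32 (SE 0.28, limma adjusted p = 0.0391), or 2.49-fold. This call ended without each single array other than wild type replicate 3 (adjusted p in limma up to 0.155), without the variance trend (0.0658), with the replicate block (0.0824) and with the gapdhs (0.0981) and actc1b covariates (0.241). Its paralogue cldn11a was at -0.43 (95% interval -1.32 to 0.47).

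Of the 24 tested claudin probe sets, 8 (33.3%) were separated between the groups, against 27% of all tested probe sets. Among these 8 only cldn11b passed. The claudin of the skin barrier, cldn1, had 11.22, 11.40 and 11.26 in mutant embryos, against 10.92, 10.85 and 10.28 in wild-type embryos, a change of 0.61 (limma adjusted p = 0.101). The brighter cldn12 probe set had 10.77, 10.63 and 10.71 in mutant embryos, against 11.08, 11.17 and 11.50 in wild-type embryos. All mutant arrays were lower, and the change of -0.54 did not pass (limma adjusted p = 0.0764), while the dimmer cldn12 probe set was at 0.10. Besides cldn12, cldn15la (-0.95), cldnf (-1.05), cldn3d (-0.60), cldn3c (-0.24) and cldnk (-0.62) were lower on every mutant array and did not pass (limma adjusted p from 0.115 to 0.379).

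Other claudins overlapped between the groups. The gene cldnb, known from the epidermis and the lateral line primordium, had 9.51, 9.56 and 9.89 in mutant embryos, against 9.77, 9.05 and 10.14 in wild-type embryos, and its 95% interval ran from -0.59 to 0.59. The brighter probe set of cldn7b, whose mammalian counterpart binds EpCAM, was at 0.11 and the dimmer at 0.51 (limma adjusted p = 0.752 and 0.327). The blood-brain barrier claudin cldn5a was at 0.47 (95% interval -0.42 to 1.37), with 2 further probe sets under the filter, and cldna, cldnd, cldn8.1, cldn10l2 and cldn34a lay under the filter as well. The bright epithelial claudin cldni was at -0.08 (95% interval -0.38 to 0.22), and cldne, cldnj, cldn8.2, cldn15b and cldn23.1 were between -0.31 and 0.33. The 4 probe sets of cldng were between 0.04 and 0.63. The brightest of these was at 0.10, while the a_at probe set, at 10.29, 9.28 and 10.99 in mutant embryos, spread over 11.90, 9.70 and 7.51 in wild-type embryos, with the largest wild-type SD (2.20) of the 73 tested probe sets. By brightest probe set, 7 of 19 claudin genes were above 0 and 12 below, with a median of -0.05. Over all 24 tested claudin probe sets, 12 were above 0 and 12 below, with a median of 0.02.

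The occludin genes did not pass, and neither did the tested genes of the ZO proteins, which link claudins to the cell interior. No probe set used here was named tjp1a or tjp1b, so these ZO genes were not measured. Occludin, encoded by oclna, had 10.36, 10.59 and 10.14 in mutant embryos, against 10.48, 10.51 and 10.80 in wild-type embryos, a change of -0.23 (limma adjusted p = 0.450). The other occludin gene oclnb was at -0.12. The scaffold genes tjp2b (0.19, and 0.49 at a dim probe set) and tjp3 (0.29) of the ZO family had adjusted p-values from 0.524 to 0.598 in limma. All 5 probe sets overlapped between the groups.

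EpCAM is an adhesion molecule of epithelial cells that in zebrafish acts in the enveloping layer and the lateral line. The x_at probe set of epcam had 4.11, 4.06 and 4.88 in mutant embryos, against 6.05, 6.48 and 6.97 in wild-type embryos. The groups did not overlap, and the change was -2.15 (SE 0.39, limma adjusted p = 0.0210), or 4.43-fold lower in the mutant. The mutant mean signal was 21.2, under the filter level, and with an offset of 64 the change was -0.88. Leaving out any wild-type array put the probe set under the filter, and the call ended without mutant replicate 1 (0.0632) or 2 (0.0623) and when the gapdhs ratio (0.202) or the actc1b ratio (0.533) was a covariate. The brighter a_at probe set of epcam had 11.87, 11.57 and 12.04 in mutant embryos, against 12.18, 12.06 and 11.81 in wild-type embryos. These overlapped, with a change of -0.19 (95% interval -0.55 to 0.16), and the x_at change lay 1.96 below it (difference -1.96, exact permutation p = 0.1). By its name, the a_at probe set belongs to the same numbered series as probe sets annotated to the epidermis markers icn and icn2. Whether another transcript contributes to either epcam probe set was not tested.

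The cadherins named cdh and a digit overlapped between the groups in all 8 tested probe sets. E-cadherin, encoded by cdh1, had 11.53, 11.60 and 11.73 in mutant embryos, against 11.52, 11.29 and 11.88 in wild-type embryos, a change of 0.05 (95% interval -0.31 to 0.42). N-cadherin, encoded by cdh2 and known from neural tissue and muscle, had 11.84, 11.94 and 11.95 in mutant embryos, against 11.62, 11.86 and 11.67 in wild-type embryos, a change of 0.20 (95% interval -0.07 to 0.46). These intervals leave out a change of 1 in either direction. Of the tissue cadherins, cdh17 of the pronephros was at 0.06, cdh4 of the retina and brain at 0.15, and cdh18a at 0.12, while cdh13 and a further cdh2 probe set lay under the filter. The muscle cadherin cdh15 was at -0.77 with a wide interval from -1.70 to 0.16, and its mutant mean signal of 33.2 was under the filter level. The brighter probe set of cdh11, a cadherin of mesenchyme, had 8.52, 9.68 and 9.54 in mutant embryos, against 9.19, 9.75 and 10.46 in wild-type embryos. Its change was -0.56, while the dimmer cdh11 probe set was at 0.19, and neither passed (limma adjusted p = 0.433 and 0.604).

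The catenin genes that the name rule placed in this group were above 0 in all 3 tested genes without passing. Of related genes described below, ctnnb1 was at 0.18, ctnnb2 at -0.24 and jupa at -0.06. The alpha-catenin gene of neurons, ctnna2, had 8.39, 7.83 and 8.07 in mutant embryos, against 7.30, 7.33 and 7.52 in wild-type embryos. The groups did not overlap, and the change was 0.71 (SE 0.21, limma adjusted p = 0.101). The epithelial alpha-catenin gene ctnna1 had 11.14, 11.43 and 11.24 in mutant embryos, against 10.62, 10.73 and 11.36 in wild-type embryos, where replicate 3 alone reached the mutant values. Its change was 0.37 (limma adjusted p = 0.330). The p120-catenin gene ctnnd1, which stabilises cadherins at the membrane, was at 0.25 (limma adjusted p = 0.617). Of 13 neuron markers none passed in limma, while 10 were below 0 (median -0.39) and 5 had an unadjusted p under 0.05, 4 of them lower in the mutant. They had a summed signal of 8025 to 10045 in mutant embryos and 8736 to 10498 in wild-type embryos.

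Protocadherins, most of which act in neural tissue, gave 5 tested probe sets, and none passed in limma, with 1 at an unadjusted p under 0.05. That was pcdh18a, with 7.86, 8.01 and 8.13 in mutant embryos, against 8.35, 8.45 and 8.84 in wild-type embryos, lower on every mutant array at -0.55 (limma adjusted p = 0.155). The brighter pcdh10a probe set, at -0.44, was also lower on every mutant array (limma adjusted p = 0.351), and pcdh1b was at 0.81 (limma adjusted p = 0.264). The partner of N-cadherin pcdh19 was at 0.13 (95% interval -0.26 to 0.51), and pcdh10b was at 0.01. The probe sets of pcdh8 and pcdh1a6, like further ones of pcdh10a and pcdh18a, lay under the filter.

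**Figure D3:**
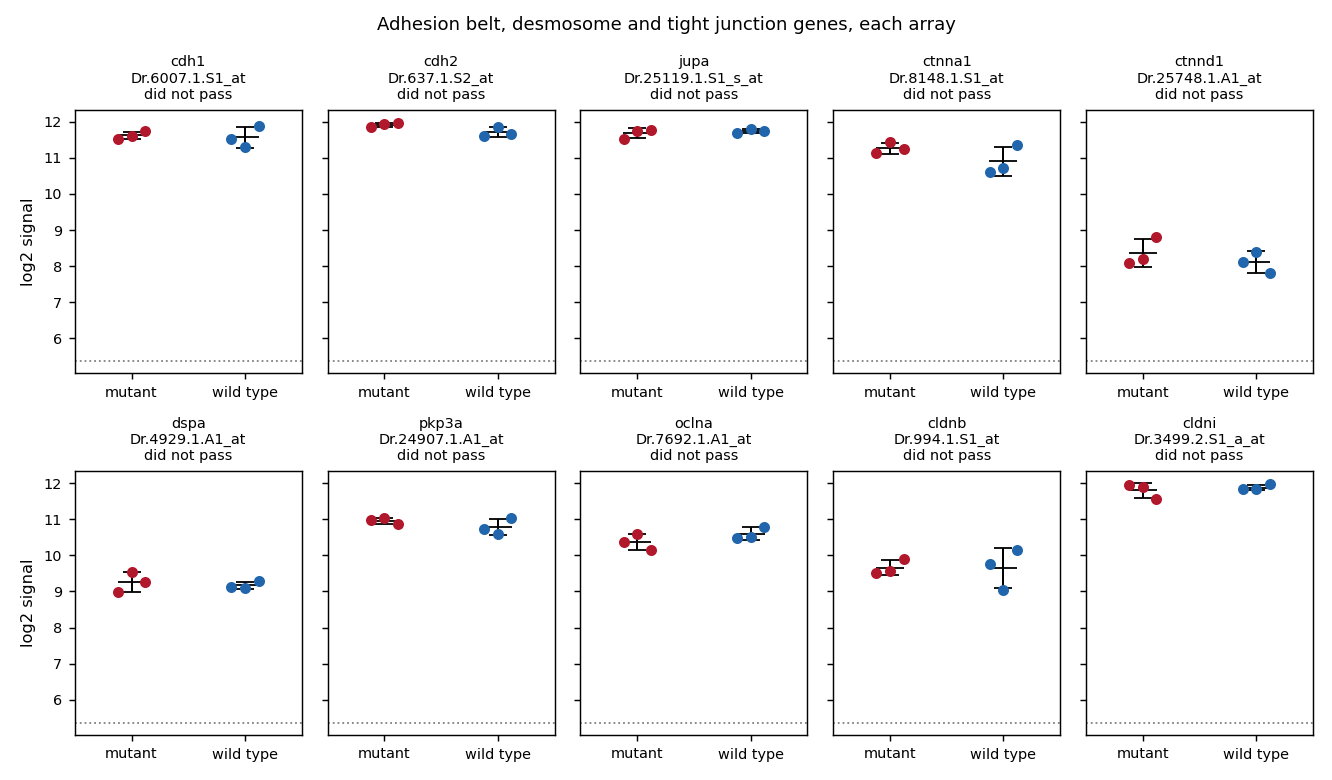
Log2 signal (vertical axis) of 10 probe sets of the adhesion belt, desmosomes and tight junctions, mutant arrays in red on the left and wild-type arrays in blue on the right of each panel. Points are arrays, black bars are the mean and SD (n = 3), and the dotted line is the filter level. The groups overlap in every panel. The panels are a selection, and other probe sets of these junctions did not overlap, among them those of cldn1, ctnna2 and pkp4 and the brighter of cldn12.

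Desmosomes are the junctions that tie keratin filaments together across the epidermis. The name rule gave 5 tested genes of their plaque or related to it, and none passed. Other desmosome genes, among them those of the desmosomal cadherins, fall outside the rule and are counted with the further junction genes below. In limma none of the 5 had an unadjusted p under 0.05. Plakoglobin, encoded by jupa, had 11.52, 11.76 and 11.78 in mutant embryos, against 11.70, 11.79 and 11.74 in wild-type embryos, a change of -0.06 (95% interval -0.33 to 0.21). Desmoplakin, encoded by dspa, was at 0.10 (95% interval -0.30 to 0.50), with a further probe set under the filter. The plakophilin genes pkp3a and pkp1b were at 0.17 and -0.40 (limma adjusted p = 0.555 and 0.323). The related gene pkp4, of the p120 family, had 8.68, 8.89 and 8.89 in mutant embryos, against 8.91, 9.20 and 9.39 in wild-type embryos, separated by a narrow margin at -0.35 (limma adjusted p = 0.294).

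Of 10 connexin genes only gja1b, which encodes connexin 43, passed the filter. It had 9.71, 9.56 and 9.77 in mutant embryos, against 10.001, 10.14 and 10.22 in wild-type embryos. Every mutant array was lower, and the change of -0.44 did not pass (SE 0.14, limma adjusted p = 0.118). The probe sets of gja2, gja3, gja8b, gja9a, gja10b, gja13.1, gjb1a, gjb8 and gjb9b lay under the filter and were left out of the test.

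**Figure D4:**
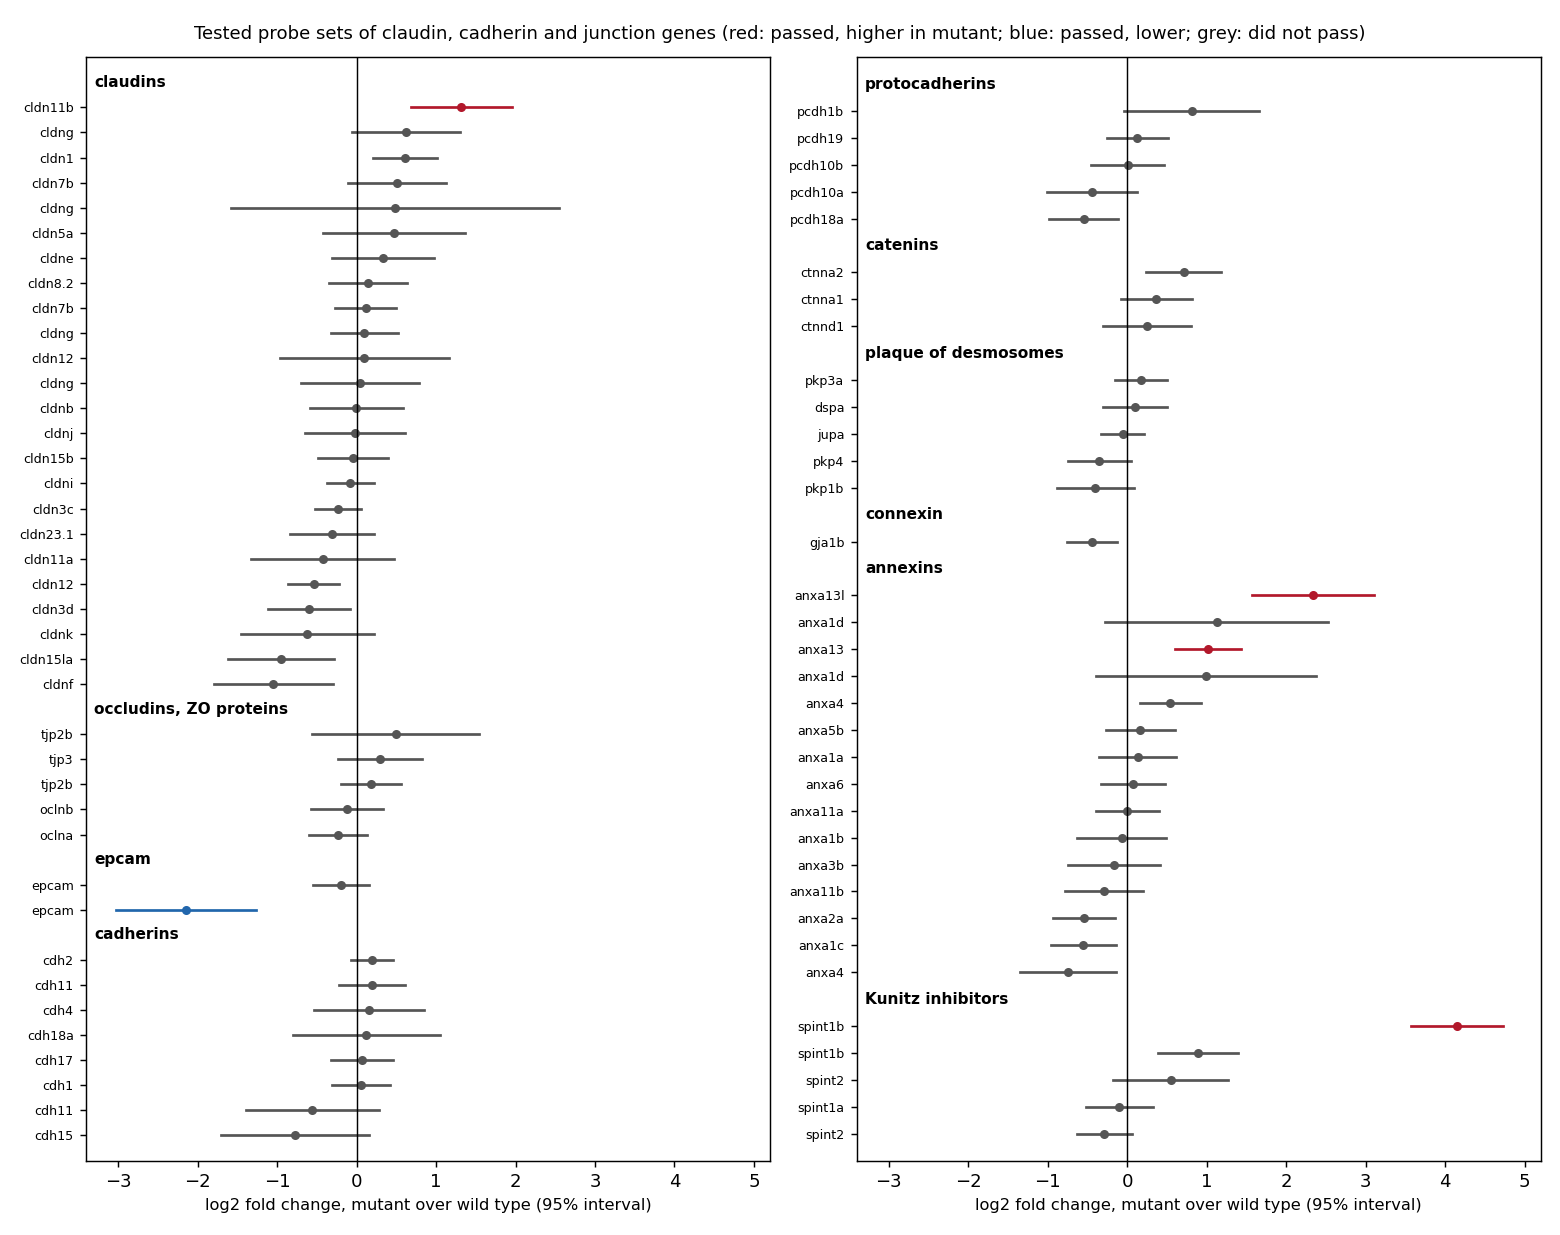
Log2 fold change of mutant over wild type (horizontal axis) with its 95% interval from limma for the 73 tested probe sets, grouped by role, a gene name appearing once per probe set. The 4 red rows passed and were higher in the mutant, the blue row passed and was lower, and the 68 grey rows did not pass, 47 of them between -0.5 and 0.5.

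For the 68 probe sets that did not pass, the 95% interval lay within 1 in either direction for 45 and reached beyond it for 23. Over all 73 tested junction probe sets, calls included, the median standard error was 0.22, as for all probe sets tested on the array. The probe sets of a gene did not always go together: of 10 genes with several tested probe sets, 6 had all changes of 1 sign and 4 had opposite signs (anxa4, cdh11, cldn12 and spint2), and in 3 (spint1b, epcam and anxa4) they differed by more than 1. Of the 6 tested probe sets with 1 group mean under the filter level, 3 were calls (spint1b, anxa13l and epcam). In the gene table of the GRCz12tu assembly, 3 of the 73 tested probe sets belonged to the chromosome that carries prdm1a. None of these 3 passed in limma, and 1 had an unadjusted p under 0.05.

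Of 27 further junction and polarity genes tested outside these families, 1 fell and 26 did not pass, with a median of 0.02. Over the whole array 3.39% of tested probe sets were called, so 1 call in a list of this size is near that share. The one that fell was grhl1, which encodes a Grainyhead-like transcription factor, a family known to activate junction genes in epithelia. It had 8.56, 8.58 and 8.36 in mutant embryos, against 9.20, 9.23 and 9.56 in wild-type embryos, a change of -0.83 (SE 0.17, limma adjusted p = 0.0343), or 1.78-fold lower in the mutant. The call ended without each single array other than wild type replicate 1 (adjusted p in limma up to 0.119), without the variance trend (0.0578), with the replicate block (0.0771), and when the gapdhs ratio (0.502) or the actc1b ratio (0.558) was a covariate. The beta-catenin genes ctnnb1 and ctnnb2 were at 0.18 and -0.24 (limma adjusted p = 0.422 and 0.369). The integrin gene itga6b of hemidesmosomes, chosen after its values were seen, was at -1.63 (limma adjusted p = 0.0636).

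Markers of other tissues moved beside these results. Of 15 tested epidermis and periderm markers, krt17 fell and 14 did not pass (median 0.12), and their summed signal was 90067 to 93579 in mutant embryos, against 94708 to 97144 in wild-type embryos, with no overlap. Without krt17 the sums overlapped, at 87669 to 92012 in mutant embryos and 87628 to 89361 in wild-type embryos. The list shares anxa1a and anxa1c with the genes above. Of 4 hatching gland genes, agr2 rose and 3 did not pass, with a summed signal of 12149 to 12926 in mutant embryos, against 8449 to 8596 in wild-type embryos. Without agr2 the sums overlapped, at 7192 to 8296 in mutant embryos and 7345 to 7685 in wild-type embryos. Among 4 markers of ionocytes, the ion-transporting cells of the skin, atp1b1b fell (-2.34, limma adjusted p = 0.00334) and 3 did not pass, and their summed signal overlapped, at 6070 to 7541 in mutant embryos and 7100 to 8384 in wild-type embryos. Of 6 endothelium markers, fli1 rose (0.88, limma adjusted p = 0.0434) and 5 did not pass. All 6 notochord markers were above 0 (median 0.38) and none passed in limma, with 3 at an unadjusted p under 0.05. The summed signal of the 6 was 14021 to 16876 in mutant embryos, against 8161 to 12456 in wild-type embryos, with no overlap. The 3 were the bright collagen genes col2a1a, col9a1b and col9a2 (0.60, 0.50 and 0.77). The groups overlapped for noto, cmn and shha (0.26, 0.13 and 0.04). Neither of 2 tested lens markers passed in limma, though both were above 0 (median 1.03) with an unadjusted p under 0.05. Their summed signal was 2605 to 6508 in mutant embryos, against 1324 to 2453 in wild-type embryos, with no overlap. No tested marker of heart (4 genes) or of otic and sensory tissue (3 genes) passed. The heart marker tnnc1a was at 1.53 and higher on every mutant array (limma adjusted p = 0.0589). Its wild-type mean log2 signal of 5.34 was under the filter level. The groups overlapped for the other heart markers, myl7 (0.01), cmlc1 (-0.08) and tnnt2a (0.18). Slow muscle markers fell in 2 of 3 genes, with a summed signal of 5295 to 7228 in mutant embryos, against 16363 to 18614 in wild-type embryos. Fast muscle markers rose in 5 of 10 genes, with a summed signal of 96916 to 133214 in mutant embryos, against 58211 to 78794 in wild-type embryos. All 10 were above 0 (median 0.72) with an unadjusted p under 0.05 in limma. The 5 that did not pass summed to 56212 to 74866 in mutant embryos and 31979 to 51994 in wild-type embryos, with no overlap. The part of these tissues in the changes of the genes above was not tested.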

How the data were processed

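The authors deposited linear array intensities, and the submitters' processing notes name MAS5 as the tool. Its version was not given in the sources used here. Averaged after trimming 2%, the signal of every array was 500.13 to 500.14. Intensities were taken to log2 as deposited, 115 control probe sets and then the lowest 30% by mean log2 signal were left out. The other 10851 probe sets were fitted in R 4.3.3 by limma 3.58.1, with lmFit and a variance trend in eBayes, with genotype as the only term and n = 3 arrays per group. The fit was tested on simulated data. Symbols came from the platform annotation, and all 104 were found in the RefSeq table of GRCz12tu. Replicates are separate samples by label, so a p-value covers no more than the spread among these samples, which may be technical.

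Members and lists were chosen with earlier results of these data known. Named genes were all calls with every probe set of their genes, the 3 smallest p and the brightest probe set per role, fixed core genes, and calls or the 2 smallest p of further lists. Of the fixed core genes, cdh5, cldn5b, tjp1a, tjp1b and those with a cx name had no probe set used here. Other members were named to account for them, and ctnnb1, ctnnb2, st14a and s100a10b for their roles. A planned promoter search was not run because no promoter sequences were used here. Alternatives were other normalizations, offsets, filters, variance models, thresholds, RNA quality covariates, the replicate block and each array left out. Figures were drawn with matplotlib 3.10.9.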

Additional observations from a re-analysis of the deposited data

How the results depend on the processing

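The 5 calls among junction probe sets (4 higher, 1 lower) were all kept with no filter, a robust fit, offsets of 16 and 64, and normalization by cyclic loess, median or quantile. Under these settings 2.34% to 4.23% of all tested probe sets were called. Without the variance trend the cldn11b call ended and the other calls were kept, where 2.38% of all tested probe sets were called. With the lowest 50% left out, 2 were called, 2 higher and 0 lower, as spint1b, anxa13l and epcam lay under that filter (limma; 7 of the tested members lower at an unadjusted p under 0.05). There 3.69% of all tested probe sets were called. With array weights 14 were called, 9 higher and 5 lower, where 13% of all probe sets were called. With the replicate block 3 were called, 2 higher and 1 lower, where 2.4% of all probe sets were called. With the gapdhs or the actc1b covariate 1 was called, 1 higher and 0 lower, where 0.405% and 0.24% of all probe sets were called. In limma 6 and 4 members were lower at an unadjusted p under 0.05 with these covariates. At an adjusted p of 0.1 the fit called 7, 5 higher and 2 lower, and at 0.01 it called 2, 2 higher and 0 lower, with 10 lower at an unadjusted p under 0.05. The share of all probe sets called at these 2 thresholds was not computed. Over left-out arrays the calls ran from 2 to 5, those higher from 2 to 5 and those lower from 0 to 1, where 0.995% to 4.24% of all probe sets were called. The median log2 fold change of the genes was 0.00, and 0.10 without the filter and 0.14 with the actc1b covariate. No call changed direction under any of these alternatives. The cause of the other differences was not tested.

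The replicate numbers were checked as pairs: deviations of same-numbered mutant and wild-type arrays correlated at 0.06, 0.05 and -0.07, so the numbers were not taken as pairs and the replicate block stands only as an alternative. Signals under the filter level limit what can be read for 31 of the 104 probe sets.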

Other observations

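The probe sets under the filter leaned to higher values in the mutant. Fitted without the filter, 27 of the 31 junction probe sets left out were above 0, with a median of 0.65, and 6 were higher on every mutant array while none was lower on every mutant array (19.4% and 0% of the 31). Of all 4651 probe sets left out, 9.76% were higher and 4.86% lower on every mutant array. None of the 31 junction probe sets passed in limma (adjusted p from 0.106 to 0.969), and 4 of these 31 had an unadjusted p under 0.05. Of the 4651, 63.1% were above 0, with a median of 0.29. The connexin gja13.1, chosen after its values were seen, had log2 signals of 3.74, 3.67 and 3.71 in mutant embryos, against 1.83, 2.63 and 0.68 in wild-type embryos, where 1 is a signal of 2, so these are differences between very dim values.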
